A study of Mus musculus with 24 samples.

Results

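The collagen and laminin genes of the mouse were followed through ischemic kidney injury in males and females. A gene was taken as a member when its symbol was that of a collagen chain (Col, a number, a, a number) or a laminin chain (Lama, Lamb or Lamc with a number) and it had at least 1 protein-coding transcript. The rule found 55 genes, 44 collagen and 11 laminin chain genes, of 53392 genes in the tables, and used no measured value. The members were chosen, however, with earlier results of these data known. All groups were FVB mice, which are inbred, and RNA was taken from their kidneys; ages and the time after surgery are not given in the sources used here. After enzymatic digestion, proximal tubules were picked by microdissection and endothelial cells were pulled down with beads against CD31, the protein of Pecam1. Each isolation had sham-operated females, sham-operated males, females with ischemic acute kidney injury and males with that injury, with 3 libraries per group except the sham female endothelial group, which had 2. The protocol names 3 mice of each sex per experimental group, so the libraries of a group were taken as separate mice; whether both isolations came from the same mice is not given. Each of the 11 endothelial library titles carries a number that the title of a tubule library of the same sex and surgery also carries, and what it marks is not stated. Levels are given as CPM, estimated reads scaled to one common library size, which allow a gene to be compared between libraries. Levels of different members are compared only as TPM, which also divides by transcript length. Sums of marker genes describe each library in CPM, without that division. A gene was called changed at an adjusted p under 0.05 in edgeR's quasi-likelihood test, with the Benjamini-Hochberg adjustment taken over the whole table of tested genes. Log2 changes are given with ± SE from that fit, and group means with ± SD.

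Estimated reads per library ranged from 32592517 to 54906972 over the 23 libraries, and reads assigned to members from 33509 to 147850. Xist, which is expressed from the inactive X chromosome, was at 37.5 to 138 CPM in female and 0 to 0.506 in male libraries, as labelled. Havcr1, an injury marker of proximal tubule, rose by 5.61 ± 0.83 on the log2 scale in male tubules (adjusted p = 0.00244) and had a log2 change of 2.92 ± 0.76 in female tubules (adjusted p = 0.147). In endothelial isolates it was at 4.9 CPM in the library labelled injured male replicate 2, near the 1.26 to 4.8 of sham males, against 299.6 and 239 in its group, so Havcr1 went against the injury label of that library. Neutrophil markers of that library, at 149 CPM against 3.53 to 5.43 in sham male isolates, did not go against the label. Lrp2, the endocytic receptor of proximal tubule, was at 681 to 4051 CPM in tubule libraries and at 614 to 4950.4 CPM in endothelial isolates. Pecam1 was at 63.4 to 221 CPM in endothelial isolates and at 21.5 to 53.9 CPM in tubules. The endothelial isolates held tubule and podocyte RNA beside endothelial RNA: 16 proximal tubule markers summed to 15057 to 40991 CPM there, 11 thick ascending limb and distal markers to 10607 to 22418, 10 podocyte markers to 1039 to 2228 and 14 endothelial markers to 578 to 2433. In tubule libraries the endothelial markers summed to 180.5 to 495 CPM and the podocyte markers to 97 to 508. Several libraries stood apart from their groups. Injured male tubule replicate 3 had distal markers at 2396 CPM and neutrophil markers at 4.82, against 6434 and 39.9 in replicate 1 and 6330.0 and 24.1 in replicate 2. Injured male tubule replicate 1 had Havcr1 at 31.5 CPM, against 277 and 304 in the others and 3.29 to 5.19 in sham males. Endothelial markers of sham male isolate replicate 3, podocyte Nphs1 of injured female tubule replicate 3 and neutrophil markers of the library labelled injured male isolate replicate 2 also stood apart and are given beside the results they touch. In bulk RNA, fewer cells of a type and less RNA per cell cannot be told apart.

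Kidney tubules and vessels rest on basement membranes, sheets in which a type IV collagen network and a laminin network are joined by nidogen and perlecan. A laminin molecule is a trimer of an alpha, a beta and a gamma chain, and a type IV collagen molecule is a trimer of alpha chains. The chains of Col4a1 and Col4a2 form the network found in nearly all basement membranes, while those of Col4a3, Col4a4 and Col4a5 form the network of the mature glomerular and part of the tubular basement membrane. Collagen XVIII (Col18a1) is a proteoglycan of basement membranes whose C-terminal fragment is endostatin. Fibrillar collagens, such as type I and type III, belong to the interstitium and are made mainly by fibroblasts. Type IV collagen genes lie in head-to-head pairs that share a promoter region.

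One such pair and the promoter regions of 3 other members are shown because their genes moved in male tubules. Col4a4 (chr1:82448423-82586849, minus strand) and Col4a3 (chr1:82586921-82722059, plus strand) point away from each other across 71 bases that no annotated exon covers. These bases and the 120 bases before the outermost annotated starts of Col18a1, Lama5 and Col6a6 are printed 5′ to 3′ on the strand named, from RefSeq's promoter table of GRCm38.p6, and capitals mark a GC box (GGGCGG on either strand). Col18a1 and Lama5 rose after injury in male tubules, and Col6a6 fell there and was higher in sham males than in sham females.
Between Col4a4 and Col4a3, chr1:82586850-82586920, plus strand: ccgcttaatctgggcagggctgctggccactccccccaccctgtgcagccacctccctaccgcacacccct
Before Col18a1, chr10:77166549-77166668, minus strand: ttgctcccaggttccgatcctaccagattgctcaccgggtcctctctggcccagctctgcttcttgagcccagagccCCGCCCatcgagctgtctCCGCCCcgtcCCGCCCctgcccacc
Before Lama5, chr2:180225860-180225979, minus strand: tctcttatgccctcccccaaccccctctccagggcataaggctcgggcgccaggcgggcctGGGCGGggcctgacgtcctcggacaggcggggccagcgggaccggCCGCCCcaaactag
Before Col6a6, chr9:105828161-105828280, minus strand: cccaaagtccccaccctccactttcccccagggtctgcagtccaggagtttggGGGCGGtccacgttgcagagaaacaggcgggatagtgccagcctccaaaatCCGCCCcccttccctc
The stretch between Col4a4 and Col4a3 held no GC box and was 69% G and C, while the stretch before Col18a1 held 3, that before Lama5 2 and that before Col6a6 2. The table held 300-base promoter windows for 40 of the 55 members. A GC box lay in 26 of their 44 windows (59.1%) and in 35.6% of all 32817 windows. On either strand, CCAAT lay in 14 of the 44 and in 37.4% of all windows, TATAAA in 5 and in 13.6%, and TGANTCA in 1 and in 7.81%. These are matches of letters, and no test was made on them.

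Basement membrane genes made up most of the members' RNA per length in both isolations. Gene TPM was strongly raised by short annotated transcripts of a few members, so levels were taken over transcripts at least 0.5 times as long as the longest coding one, a choice made after seeing the data. The 221-base retained-intron transcript of Lamb2, for example, carried a mean of 34.5 TPM from a mean of 22.6 reads. On this scale the type IV genes held 47.6% of all member TPM in tubules and 45.3% in endothelial isolates. Type XV and XVIII genes held 17.1% and 19%, and the laminin beta chains 14% and 16.4%. Fibrillar collagens held 4% and 2.16%. The distribution was steep, with 41 of the 55 members under 1 TPM in tubules and 40 in endothelial isolates.

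Averaged over all groups, the tubule members of highest TPM were Col18a1 (15.4 ± 8.15, SD over 12 libraries), Col4a1 (13.6 ± 8.01), Col4a4 (12.1 ± 3.34), Lamb1 (10.6 ± 2.42), Col4a2 (8.1 ± 3.05), Col4a3 (6.58 ± 2.05), Col6a6 (3.31 ± 4) and Lama5 (2.92 ± 2.02). Neighbours in this order lay within each other's spread. The order differed between groups: Col4a4 was above Col18a1 in every sham tubule library, at 11.5 to 12.2 TPM in sham females and 14.1 to 17.9 in sham males against 7.21 to 10.3 and 5.47 to 10.5, and Col18a1 was above Col4a4 in every injured one. Col6a6 was at 0.724 to 0.882 TPM in sham females and 7.88 to 10.6 in sham males. In endothelial isolates the order over all groups began with Col18a1 (24.7 ± 10.9, SD over 11 libraries), Col4a1 (21 ± 13.2), Col4a2 (14.9 ± 7.37), Lamb1 (14.6 ± 3.67), Col4a4 (13.1 ± 3.8), Col4a3 (8.44 ± 2.89) and Lamb2 (7.62 ± 3.39), again with overlapping spreads between neighbours. Over all transcripts the value of Lamb2 in endothelial isolates was 55.8 TPM and that of Col4a1 in tubules 59 TPM, so the order of Lamb2 and Col4a1 among the members depends on how short transcripts are counted. The filter on low counts kept 45 members in the tubule fit and 46 in the endothelial fit. Those left out of both were Col2a1, Col6a4, Col8a2, Col9a1, Col9a2, Col9a3, Col10a1, Col22a1 and Col28a1, with Col25a1 left out of tubules only.

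In male tubules injury raised the genes of the widespread type IV network, collagen XVIII and several laminin chains, and lowered the genes of the Col4a3 and Col4a4 network, Lamb1, Col6a6 and Col19a1. Of 45 members tested, 8 rose and 5 fell, while 10.6% of all 18369 genes tested rose and 8.43% fell. The members' share was thus 17.8% and 11.1%, and their median log2 change was 0.42 against -0.03 for all genes. The remaining 32 did not pass, with log2 changes from -4.91 ± 1.96 (Col11a1) to 4.42 ± 2.08 (Col17a1), both genes of few reads. By class, 4 of 11 laminin genes rose and 1 fell, and 4 of 34 tested collagen genes rose and 4 fell. None of the 10 tested fibrillar collagen genes passed.

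**Figure D1:**
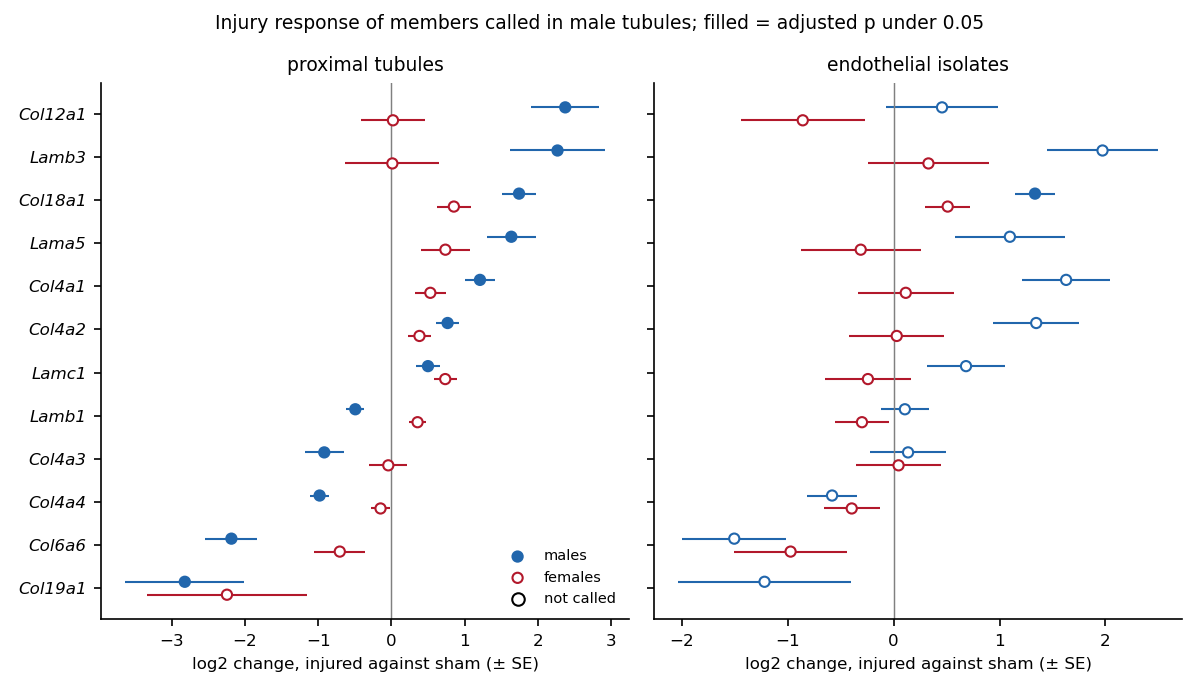
Log2 change with injury (x axis, point ± SE) of 12 of the 13 members called in male tubules, in proximal tubules (left) and endothelial isolates (right). Blue is males and red females, filled points passed an adjusted p of 0.05, and the female endothelial point of Col19a1 is left out because the sham group had no read. Col4a1 and Col4a2 lie right of 0 and Col4a3 and Col4a4 left of 0 in male tubules, and no female point is filled.

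Col4a1, a chain of the widespread network, was at 209, 212 and 177 CPM in sham males and at 627, 428 and 327 in injured males. Its partner Col4a2 was at 112, 122 and 101 CPM in sham and 238, 158 and 173 in injured males. Every injured library lay above every sham library for both genes. The log2 change was 1.21 ± 0.21 for Col4a1 (adjusted p = 0.00492, edgeR) and 0.77 ± 0.16 for Col4a2 (adjusted p = 0.00996). Col4a3 and Col4a4 went the other way. Col4a3 was at 144, 182 and 152 CPM in sham and 87.7, 48.2 and 117 in injured males, a fall of 0.92 ± 0.26 on the log2 scale (adjusted p = 0.0344). Col4a4 was at 331, 383 and 379 CPM in sham and 216, 153 and 184 in injured males and fell by 0.98 ± 0.13 (adjusted p = 0.00168). For these genes every injured library lay below every sham library. Col4a5, the third chain of that network, was at 33.4, 32 and 39.5 CPM in sham and 17.1, 14.3 and 31 in injured males and had a log2 change of -0.75 ± 0.26, which missed the threshold (adjusted p = 0.0632) although the groups did not overlap. Without injured replicate 3, Col4a5 passed.

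Podocytes also make the Col4a3 and Col4a4 network, so their markers are given beside it. Nphs1, which encodes the slit diaphragm protein nephrin, was at 0, 22.6 and 19.8 CPM in the 3 sham male tubule libraries and at 38.9, 3.19 and 12 in the injured ones. The 10 podocyte markers summed to 97, 435 and 394 CPM in sham and 508, 129.7 and 308 in injured males. In the sham library with no Nphs1 read, Col4a3 stood at 144 CPM and Col4a4 at 331 CPM, the lowest of the sham libraries but above every injured one. Among the 10 podocyte markers none passed in edgeR's test in male tubules, 0 had an unadjusted p under 0.05 and DESeq2 called 0. The part of podocyte RNA in these values was not tested.

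The balance of the networks can be read as a ratio. The ratio of summed TPM of Col4a1 and Col4a2 to that of Col4a3 and Col4a4, chosen after the values were seen, was 0.851, 0.746 and 0.645 in sham males and 3.64, 3.87 and 2.03 in injured males over near full-length transcripts. In females it was 0.652, 0.715 and 0.638 in sham and 1.03, 1.03 and 0.844 in injured libraries. All injured male libraries lay above all other tubule libraries, and did so over all transcripts too, where the ratio was higher throughout, 1.84 ± 0.111 in sham and 6.29 ± 1.42 in injured males (n = 3). In endothelial isolates the ratio was 0.945, 0.815 and 1.12 in sham males, 2.04, 5.23 and 2.52 in injured males, 1.37 and 0.989 in sham females and 1.45, 1.32 and 1.83 in injured females. Every injured male library again lay above every other endothelial library over near full-length transcripts. Over all transcripts they overlapped, with injured male replicate 1 at 3.98 and injured female replicate 3 at 4.27. Within each network, Col4a1 to Col4a2 was 1.49 ± 0.0836 (n = 3) in sham and 2.13 ± 0.465 (n = 3) in injured male tubules, and Col4a3 to Col4a4 was 0.522 ± 0.0467 and 0.545 ± 0.188. No test was made on ratios, which are built from genes already tested.

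**Figure D2:**
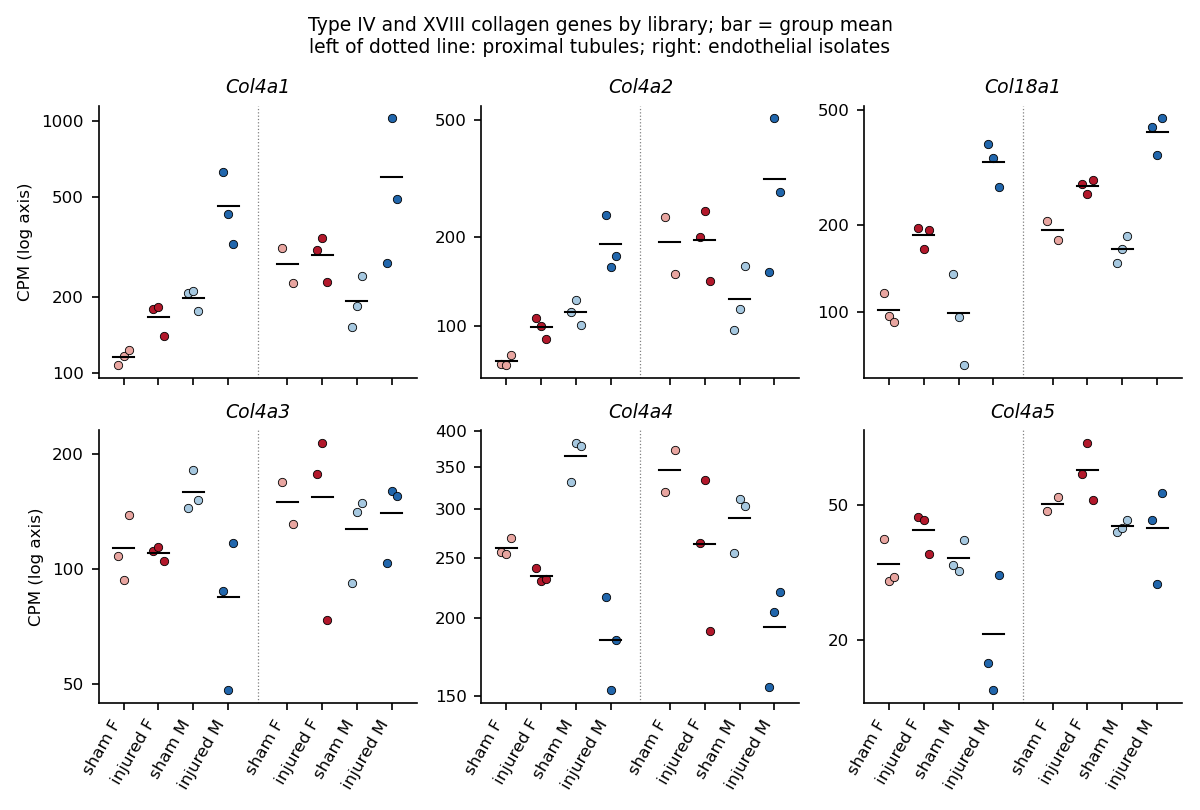
CPM on a log axis of 5 type IV collagen genes and Col18a1 in each library, by group, with proximal tubules left and endothelial isolates right of the dotted line. Points are libraries and bars are group means; in male tubules Col4a1, Col4a2 and Col18a1 are higher and Col4a3 and Col4a4 lower after injury, with no overlap.

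**Figure D3:**
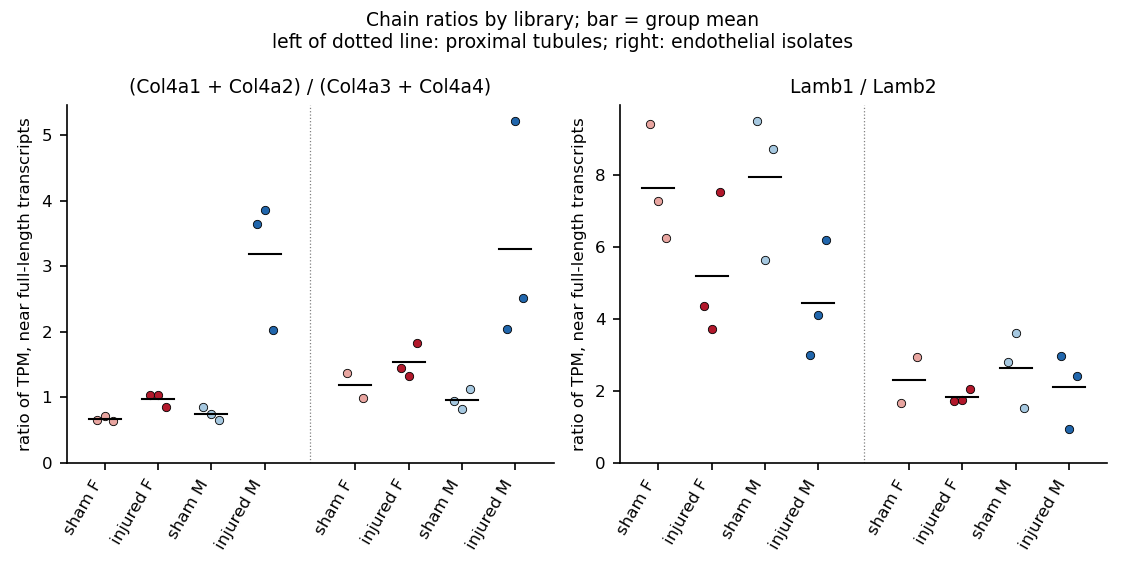
Ratio of TPM over near full-length transcripts in each library (points, bar = group mean) for the 2 type IV networks (left) and for Lamb1 over Lamb2 (right). The 3 injured male tubule libraries lie between 2.03 and 3.87 on the left, above all other tubule libraries, and in sham mice Lamb1 over Lamb2 is lower in every endothelial isolate than in every tubule library.

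Col18a1 had the smallest adjusted p of the members. It was at 136, 96.8 and 65.7 CPM in sham and 383, 342 and 273 in injured males, 3.35-fold higher in the fit (log2 1.74 ± 0.23, adjusted p = 0.00163). The injured libraries all lay above the sham libraries. Col18a1 has an upstream start at chr10:77166548 and downstream starts at 77113946 and 77113705 (GENCODE M21, minus strand), which give proteins with different N-terminal parts. The upstream transcript held 90.3% ± 4.5 of the TPM of these transcripts in sham males and 96.4% ± 1.38 in injured males (SD, n = 3). In females the share was 83.6% ± 7.07 in sham and 92.3% ± 4.25 in injured tubules. The ranges overlapped between sham and injured females and did not in males, where sham libraries had 85.4% to 94.2% and injured libraries 94.9% to 97.5%. Its relative Col15a1 was low in male tubules, at 1.04 to 1.54 CPM in sham and 1.12 to 3.74 in injured libraries (log2 0.71 ± 0.50, adjusted p = 0.33).

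Among the laminins of male tubules, Lama5, Lamb3 and Lamc1 were among those that rose, and Lamb1 fell. Lama5, the alpha chain found in most mature tubular and glomerular basement membranes, was at 64.5, 57.2 and 44.7 CPM in sham and 257, 179 and 81.3 in injured males (log2 1.64 ± 0.34, adjusted p = 0.0104). Lamb3, a beta chain that joins the alpha chain Lama3 in epithelial laminin, was at 2.75, 1.24 and 1.59 CPM in sham and 12.1, 11.4 and 3.36 in injured males (log2 2.27 ± 0.65, adjusted p = 0.0336), with no overlap. Lama3 was at 14.8, 11.4 and 11.9 CPM in sham and 6.15, 4.04 and 6.45 in injured males, with a log2 change of -1.20 ± 0.43 that missed the threshold (adjusted p = 0.0712). Lamc1, the gamma chain of most laminins, was at 25.4, 25.6 and 31.1 CPM in sham and 38.1, 34.9 and 43.1 in injured males (log2 0.50 ± 0.16, adjusted p = 0.0484). The beta chain Lamb1 was at 164, 146 and 139.7 CPM in sham and 111, 91.4 and 117 in injured males and fell by 0.49 ± 0.12 (adjusted p = 0.02). Lamb2, the beta chain of mature glomerular and vascular basement membranes, was at 18.1, 27.4 and 16.1 CPM in sham and 39.7, 23.8 and 18.9 in injured males (log2 0.42 ± 0.34, adjusted p = 0.409), and its groups overlapped. Lama1, an alpha chain of proximal tubule basement membranes, was at 28.7, 25.5 and 38.8 CPM in sham and 23.2, 16.1 and 23.3 in injured males and did not pass (log2 -0.57 ± 0.23, adjusted p = 0.103).

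**Figure D4:**
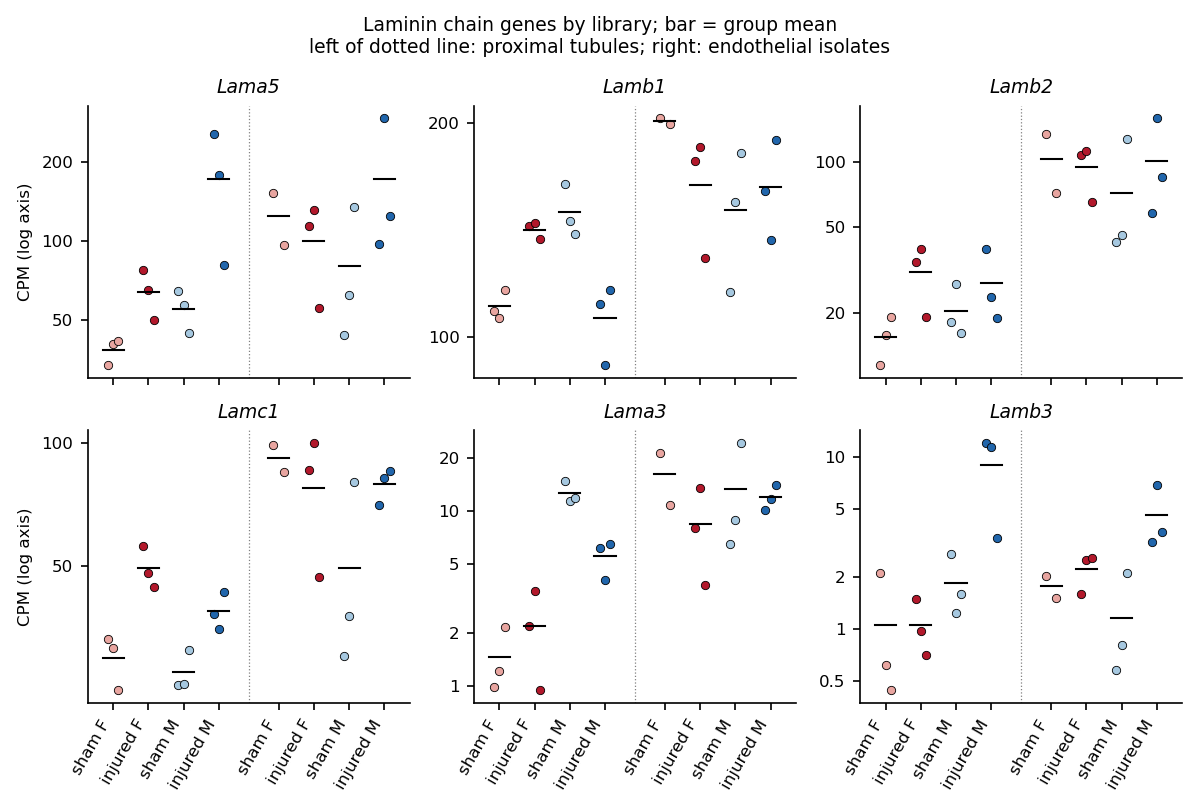
CPM on a log axis of 6 laminin chain genes in each library, by group, with proximal tubules left and endothelial isolates right of the dotted line (points are libraries, bars group means). In injured male tubules Lama5 and Lamb3 are lowest in 1 library, replicate 3, and every injured library of Lamb1 lies below the sham ones in males and above them in females.

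Outside the basement membrane genes, 3 members passed in male tubules. Col12a1, a collagen that associates with fibrils, was at 0.534, 1.95 and 1.21 CPM in sham and 5.07, 4.16 and 9.98 in injured males (log2 2.37 ± 0.46, adjusted p = 0.00829). Col6a6, a chain of type VI collagen, was at 154, 192 and 195 CPM in sham and 31.2, 19.4 and 68.3 in injured males, a fall of 2.19 ± 0.36 (adjusted p = 0.00382). Col19a1, of the same fibril-associated class as Col12a1, was at 7.45, 8.81 and 5.97 CPM in sham and 0.874, 0.523 and 1.73 in injured males, a fall of 2.82 ± 0.81 (adjusted p = 0.0349). None of the 3 had overlapping groups. The interstitial collagen genes had few reads. In injured males Col1a1 was at 0.334, 0.523 and 4.24 CPM and Col3a1 at 1.34, 1.97 and 4.7. Col1a1 had a log2 change of 2.49 ± 1.07 and Col13a1, a transmembrane collagen, one of 3.19 ± 1.17, and neither passed (adjusted p = 0.117 and 0.0764). Col13a1 and Col6a3 were high in injured replicates 1 and 2 but not in replicate 3, at 8.97, 3 and 0.48 CPM for Col13a1 and 33.8, 23.1 and 2.76 CPM for Col6a3.

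Marker genes of several cell types moved in the same libraries. Of 16 proximal tubule markers 11 fell in male tubules and 0 rose, and of 7 tested neutrophil markers 4 rose and 0 fell, their sum being 1.55 to 2.28 CPM in sham and 4.82 to 39.9 CPM in injured libraries. None of 13 tested markers of mural cells and fibroblasts passed in edgeR's test (0 at an unadjusted p under 0.05, 0 by DESeq2), and their sum was 63.7 to 288 CPM in sham and 135 to 252 in injured males. Markers of macrophages and other leukocytes summed to 212 to 425 CPM in sham and 47.7 to 118 in injured males without overlap, although of 9 tested 1 rose and 1 fell. Distal markers summed to 4332, 2862 and 2564 CPM in sham and 6434, 6330.0 and 2396 in injured males, higher in injured replicates 1 and 2 than in any sham library. The part of these cells in the members' changes was not tested. Leaving out each of the 6 male libraries in turn kept the calls of Col18a1, Col4a1, Col4a2, Col4a4, Col6a6, Col12a1 and Lama5. Those of Col4a3, Lamb3, Lamc1 and Col19a1 were lost without any library other than injured replicate 3 (adjusted p up to 0.107, 0.118, 0.143 and 0.136). Lamb1 was lost without sham replicate 1 or 2 or injured replicate 1 or 2 (up to 0.0855). With the replicate number as a block, Lamc1 did not pass (adjusted p = 0.069) and the other 12 did. In a fit of the 6 male libraries alone 1 member passed, Col18a1. Length offsets left 8 members and DESeq2 called 21, all 13 of edgeR's among them. Without injured replicate 3 all 13 passed, and 4 more did (Col6a3 and Col13a1 higher, Col4a5 and Lama3 lower). Shares of all genes called in these alternatives are not given here.

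In female tubules no member passed in edgeR's test, where 0.0109% of all genes rose and 0% fell. At an unadjusted p under 0.05 there were 16 of 45 members, beside 2032 of all 18369 genes tested. The members' median log2 change was 0.38 against 0.00 for all genes. DESeq2 called 5 members higher, among them Col1a1, Col15a1, Col18a1 and Lamc1. A fit of the 6 female tubule libraries alone called 9 higher and 1 lower, and the cause of that difference was not tested. Shares of all genes called by DESeq2 and in that fit are not given here. The 9 included Col1a1, Col4a1, Col4a2, Col15a1, Col18a1, Lama5, Lamb1 and Lamc1, and the 1 was Col6a6. All 11 laminin genes had a log2 change above 0, and the median over them was 0.72.

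Several members separated the female groups without passing, and the share of all genes that did so is not given here. Lamc1, with the smallest adjusted p of the members, was at 33, 31.4 and 24.7 CPM in sham and 56, 48.1 and 44.3 in injured females (log2 0.73 ± 0.16, adjusted p = 0.0913). Col18a1 was at 117, 97.5 and 93 CPM in sham and 195, 166 and 193 in injured females (log2 0.85 ± 0.23, adjusted p = 0.161). For both genes every injured library lay above every sham library. Lamb1 was at 109, 106 and 117 CPM in sham and 143, 144 and 137 in injured females (log2 0.36 ± 0.12, adjusted p = 0.264). Each injured female library was above the sham ones, where each injured male library had been below. Col4a1 was at 108, 117 and 123 CPM in sham and 179.7, 183 and 141 in injured females (log2 0.53 ± 0.21, adjusted p = 0.348). Col4a2 was at 74.7, 73.8 and 79.9 CPM in sham and 107, 101 and 90.6 in injured females (log2 0.38 ± 0.16, adjusted p = 0.372). The groups did not overlap for these chains of the widespread network. Col4a3 was at 108, 93.7 and 138 CPM in sham and 111, 114 and 105 in injured females, with overlap. Col4a4 was at 256, 253 and 269.5 CPM in sham and 241, 229.9 and 232 in injured females (log2 -0.15 ± 0.13, adjusted p = 0.811), a small difference without overlap.

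Lama5 and Lamb2 also had log2 changes above 0. Lama5 was at 33.7, 40.5 and 41.7 CPM in sham and 77.6, 65.3 and 50.3 in injured females (log2 0.74 ± 0.33, adjusted p = 0.438). Lamb2 was at 11.5, 15.9 and 19.2 CPM in sham and 34.6, 39.4 and 19.2 in injured females (log2 1.00 ± 0.34, adjusted p = 0.273). The groups of Lama5 did not overlap and those of Lamb2 did. Lamb3, which rose in males, was at 2.1, 0.616 and 0.44 CPM in sham and 1.49, 0.969 and 0.708 in injured females. Col12a1 was at 4.73, 3.86 and 4.54 CPM in sham and 4.84, 4.96 and 3.52 in injured females, so that both female groups lay above all sham males. Interstitial collagens differed between the injured female libraries. Col1a1 was at 0.34, 1.04 and 0.605 CPM in sham and 6.65, 8.26 and 1.18 in injured females (log2 3.00 ± 1.06, adjusted p = 0.285). Col3a1 was at 1.14, 1.07 and 3.19 CPM in sham and 11.1, 15.1 and 1.78 in injured females. Injured female replicate 3 was low for both genes and for podocyte Nphs1, at 0.0858 CPM against 17.7 and 24.6. The fibroblast and mural markers summed to 139, 171 and 62.5 CPM in the 3 injured female libraries and to 79.6, 58.1 and 301 in the sham ones. Distal tubule markers summed to 3096 to 3479 CPM in sham and 7718 to 10088 in injured females, and the part of either cell group in these values was not tested.

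The test of the sex difference in the tubule injury response called 1 member, Lamb1, lower in males, and 0 higher, where 0.474% of all genes tested were lower and 0.381% higher. The difference of the log2 changes was -0.85 ± 0.17 (adjusted p = 0.0464). It held without sham male replicate 3 or injured male replicate 3 and was lost without any of the other 10 tubule libraries (adjusted p up to 0.147). It was also lost with RLE scaling (adjusted p = 0.0544), without a filter on low counts (0.0711), with length offsets (0.294), with the replicate number as a block (0.0807) and with technical library 3B alone (0.0806), while the difference stayed below 0 in each. Col4a4 (-0.83 ± 0.19, adjusted p = 0.0629) and Col12a1 (2.35 ± 0.63, adjusted p = 0.0952) came next and missed the threshold. For Col4a1 the difference was 0.68 ± 0.29 (adjusted p = 0.232) and for Col18a1 0.89 ± 0.32 (adjusted p = 0.172). A sex difference in the response of those genes was therefore not shown in edgeR's test with all libraries. Without injured male replicate 3, 12 members passed: Col4a1, Col12a1, Col18a1, Lama5 and Lamb3 with a larger and Col4a3, Col4a4, Col4a5, Col6a6, Col26a1, Lama3 and Lamb1 with a smaller log2 change in males. DESeq2 with all libraries called 4, Col12a1 in the first direction and Col4a4, Col26a1 and Lamb1 in the second. Shares of all genes called without that replicate or by DESeq2 are not given here, so these counts have no background beside them.

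Sham males and females differed in members of several classes. In tubules 4 were higher in males and 2 lower, beside 3.24% and 2.56% of all genes. Col6a6 was at 16.1, 12.8 and 13 CPM in sham females and 154, 192 and 195 in sham males, 12.9-fold higher in males (log2 3.69 ± 0.38, adjusted p = 0.000213). Col19a1 was at 0.309, 0 and 0.247 CPM in sham females, where 1 library had no read, and 7.45, 8.81 and 5.97 in sham males (log2 5.34 ± 0.95, adjusted p = 0.00636). The epithelial laminin chain Lama3 was at 0.989, 1.21 and 2.17 CPM in female and 14.8, 11.4 and 11.9 in male libraries (log2 3.12 ± 0.46, adjusted p = 0.00216). None of these groups overlapped, and the 3 calls held whichever of the 6 sham tubule libraries was left out. Lama1 was at 11.8, 19.1 and 12.7 CPM in female and 28.7, 25.5 and 38.8 in male libraries (log2 1.09 ± 0.24, adjusted p = 0.0192). In the other direction, Col8a1, a short-chain collagen, was at 18.2, 15.4 and 21.3 CPM in female and 1.25, 3.07 and 6.32 in male libraries (log2 -2.37 ± 0.53, adjusted p = 0.0219). Col12a1 was 4.73, 3.86 and 4.54 CPM in female and 0.534, 1.95 and 1.21 in male libraries (log2 -1.82 ± 0.46, adjusted p = 0.0383). Lama1 was lost without female replicate 1 or 3 or male replicate 1 or 3 (adjusted p up to 0.0885), Col8a1 without any sham library other than male replicate 3 (up to 0.0984), and Col12a1 without any other than male replicate 2 (up to 0.113). Marker sums moved with sex in these libraries. Markers of macrophages and other leukocytes summed to 35.1 to 72.5 CPM in sham females and 212 to 425 in sham males, with 1 of 9 tested, Cd74, higher in males. Proximal tubule markers summed to 26614 to 29473 and 43256 to 44473 CPM, with 5 of 16 higher and 4 lower in males. Neither sum overlapped between the sexes. The proximal tubule sum includes Kap and Slc7a13, which were higher in males in endothelial isolates. Of the same list, Lrp2 was at 2572 to 3028 CPM in sham females and 2941 to 4051 in sham males. Slc34a1, also of that list, was at 4486 to 6276 and 4818 to 5848 CPM. These single markers overlapped between the sexes. The part of these cells in the members' differences was not tested.

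In 9 further tested members the groups did not overlap with males higher, and in 2, Col16a1 and Col6a1, with males lower, but the test was missed. The share of all genes whose groups separated in this way is not given here. Of the 9, 4 came near the threshold, Col4a1 (log2 0.78 ± 0.21, adjusted p = 0.0517), Col4a2 (0.55 ± 0.16, adjusted p = 0.0645), Col4a4 (0.49 ± 0.13, adjusted p = 0.0548) and Lamb1 (0.44 ± 0.12, adjusted p = 0.0596). In a fit made without injured male replicate 3, added after seeing the data, these 4 passed. The others were Col4a3 (0.49 ± 0.26), Lama5 (0.52 ± 0.33) and, with few reads, Col5a3, Col20a1 and Col24a1. This comparison and the injury comparison in males share the sham male libraries, so that a high sham male value enters both. Lama3 transcripts have an upstream and a downstream start, and the upstream one held 24.2% to 36.8% of Lama3 TPM in sham males and 21.7% to 100% in sham females, whose libraries had only 32 to 79 reads in the gene.

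**Figure D5:**
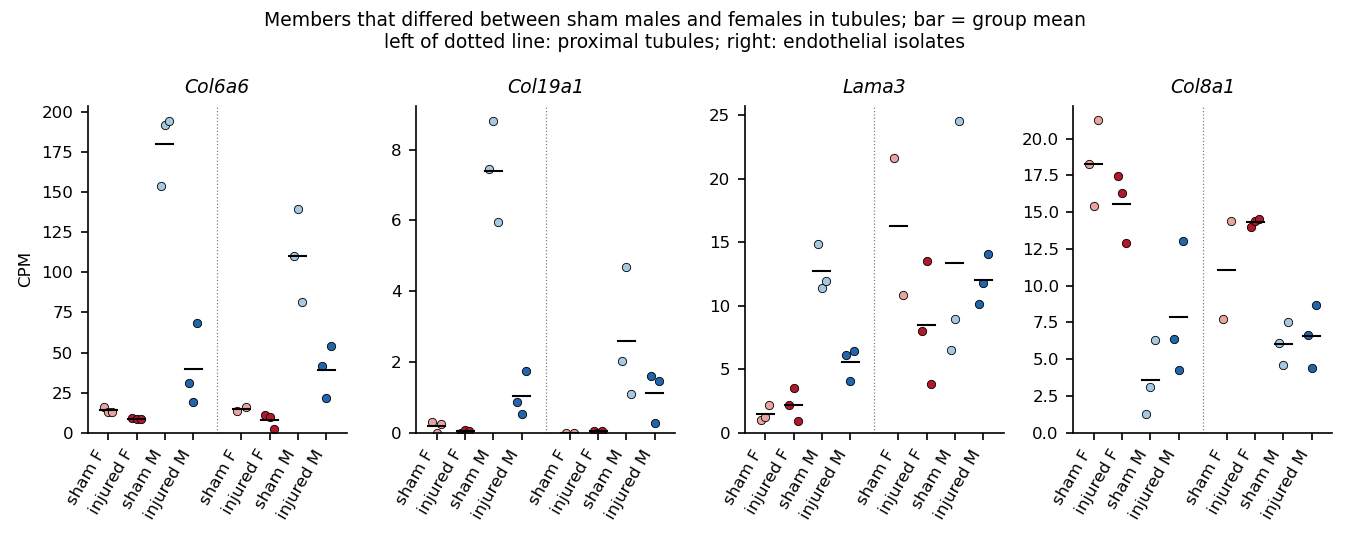
CPM (linear axis from 0) of Col6a6, Col19a1, Lama3 and Col8a1 in each library (points) with group means (bars), proximal tubules left and endothelial isolates right of the dotted line. In sham tubules the first 3 genes are higher in males and Col8a1 higher in females with no overlap, and Col6a6 and Col19a1 are higher in sham males than in sham females in endothelial isolates too.

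After injury the sexes differed in 8 members higher and 4 lower in male tubules, with 12.8% and 10.5% of all genes. Col4a1 was at 179.7, 183 and 141 CPM in injured females and 627, 428 and 327 in injured males (log2 1.46 ± 0.21, adjusted p = 0.00141). The other genes higher in males were Col4a2 (0.94 ± 0.16), Col18a1 (0.85 ± 0.23), Lama5 (1.42 ± 0.33), Lamb3 (3.08 ± 0.67), Lama3 (1.33 ± 0.44), Col6a6 (2.21 ± 0.36) and Col19a1 (4.76 ± 1.03). Col6a6 and Col19a1 remained higher in males although their level had fallen there, Col6a6 being at 9.18, 8.17 and 8.34 CPM in injured females and 31.2, 19.4 and 68.3 in injured males. Lower in injured males were Col4a5 (-1.02 ± 0.26), at 46.2, 45 and 35.8 CPM in female and 17.1, 14.3 and 31 in male libraries, Lamb1 (-0.41 ± 0.12), Col26a1 (-1.97 ± 0.64) and Col14a1 (-1.81 ± 0.60). Calls of Col4a1, Col4a2, Col6a6, Col19a1 and Lamb3 held without any one injured tubule library. Lama5 was lost without female replicate 3 or male replicate 1 (adjusted p up to 0.0573), and Col4a5 without female replicate 1 or 2 or male replicate 1 or 2 (up to 0.0752). Col18a1, Lamb1 and Col26a1 were lost without any library other than male replicate 3 (up to 0.0896, 0.127 and 0.158), Lama3 without any other than female replicate 2 (up to 0.128), and Col14a1 without any of the 6 (up to 0.158). With the replicate number as a block, Lama3, Col26a1 and Col14a1 did not pass (adjusted p = 0.077, 0.0717 and 0.0661). Distal tubule markers, of which 6 of 11 were lower in injured males, moved with these differences, and their part was not tested.

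In endothelial isolates of males injury raised 2 of 46 tested members and lowered 0, beside 0.537% and 0.326% of 19910 genes. Col18a1 was at 149, 166 and 185 CPM in sham and 437, 351 and 471 in injured males (log2 1.33 ± 0.19, adjusted p = 0.0159). Its groups did not overlap, and it rose in male tubules as well. The call of Col18a1 was lost without sham replicate 1 or 2 or injured replicate 1, with adjusted p up to 0.11. Col4a1 was at 152, 185 and 243 CPM in sham and 275, 1032 and 490.2 in injured males (log2 1.63 ± 0.42, adjusted p = 0.0939). Col4a2 was at 97.3, 115 and 159.9 CPM in sham and 152, 508 and 286 in injured males (adjusted p = 0.15). Lamb3 was at 0.576, 0.804 and 2.11 CPM in sham and 3.21, 6.85 and 3.67 in injured males (adjusted p = 0.107). These 3 did not pass, and the library labelled injured replicate 2, in which Havcr1 was at the sham level, was the highest for each. Without it the log2 changes were 0.98 ± 0.30 for Col4a1, 0.82 ± 0.34 for Col4a2 and 1.56 ± 0.51 for Lamb3 (adjusted p = 0.168, 0.342 and 0.203), and Col18a1 still passed (1.45 ± 0.17, adjusted p = 0.0062). That library also had the highest neutrophil marker sum, and Col13a1 at 30.1 and Col6a3 at 81.4 CPM. The sum was 149 CPM, against 13.5 and 15.4 in the other injured males and 3.53 to 5.43 in sham males.

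The other members of highest level in endothelial isolates of males did not pass either. Col4a3 was at 91.6, 141 and 148 CPM in sham and 104, 160.1 and 155 in injured males. Col4a4 was at 254, 311 and 304 CPM in sham and 155, 205 and 221 in injured males (log2 -0.58 ± 0.24, adjusted p = 0.281). Each injured library was below the sham ones for Col4a4, and the groups of Col4a3 overlapped. Lama5 was at 44, 62.5 and 136 CPM in sham and 98.1, 295 and 125 in injured males. Lamb1 was at 116, 155 and 182 CPM in sham and 161, 137 and 189 in injured males. Lamb2 was at 42.5, 45.8 and 127 CPM in sham and 58.2, 160.1 and 85.7 in injured males. The groups of these laminin genes overlapped, and sham male replicate 3 was the highest sham library for each. That library held 2215 CPM of endothelial markers, and the other sham male isolates 578 and 584. The part of isolate makeup in these values was not tested.

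In endothelial isolates of females no member passed in edgeR's test, and 0% of all genes rose and 0% fell. At an unadjusted p under 0.05 there was 1 member, Col18a1, beside 475 of all 19910 genes tested, and DESeq2 called 0 members. Col18a1 was at 207 and 178 CPM in sham and 278, 257 and 287 in injured females (log2 0.51 ± 0.21, adjusted p = 1), with every injured library above both sham libraries. Col4a1 was at 314 and 229 CPM in sham and 308, 343 and 231 in injured females. Col4a2 was at 235 and 150.2 CPM in sham and 201, 247 and 143 in injured females. The groups overlapped for both. Col4a3 was at 168 and 131 CPM in sham and 177, 214 and 73.4 in injured females. Col4a4 was at 319 and 373 CPM in sham and 264, 334 and 191 in injured females. Here the groups overlapped as well, and injured replicate 3 was the lowest library for both genes. Lama5 was at 153 and 97.1 CPM in sham and 114, 132 and 55.7 in injured females, and its groups overlapped too. Lamb1 was at 203 and 199 CPM in sham and 177, 185 and 129 in injured females, with both sham libraries above the injured ones. Lamb2 was at 135 and 71.8 CPM in sham and 108, 112 and 65.3 in injured females, with overlap. The test of the sex difference in the endothelial injury response called 0 members (0% of all genes higher, 0% lower). There 4 members and 1294 of all 19910 genes tested had an unadjusted p under 0.05, and DESeq2 called 0 members.

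Between the sexes, endothelial isolates repeated some differences of the tubules. After sham 1 member was higher in males and 0 lower, beside 0.276% and 0.156% of all genes. That was Col19a1, which had no read in both female libraries and 2.01, 4.69 and 1.08 CPM in males, at least 81.9-fold higher against a floor of 3 counts over the female group (adjusted p = 0.04996, lost without any one library other than male replicate 3, up to 0.327). Col6a6 was at 13.8 and 16.1 CPM in sham females and 110.4, 139 and 81.7 in sham males, without overlap (log2 2.89 ± 0.61, adjusted p = 0.0823). After injury 3 members were higher in males and 0 lower (0.663% and 0.834% of all genes). Among them were Col6a6, at 10.8, 9.63 and 2.4 CPM in female and 41.4, 21.7 and 53.8 in male libraries (log2 2.35 ± 0.51, adjusted p = 0.0489) and Col19a1, at 0.046, 0 and 0.0472 CPM in female and 1.61, 0.269 and 1.46 in male libraries (log2 5.08 ± 1.06, adjusted p = 0.0496). Col6a6 and Col19a1 were lost without any library other than male replicate 2 (adjusted p up to 0.15 and 0.183). Kap (log2 8.30 ± 0.76 after sham and 6.02 ± 0.57 after injury) and Slc7a13 (5.79 ± 0.68 and 3.40 ± 0.51), genes of proximal tubule, were higher in male endothelial isolates too. Lrp2 went the other way, at 3087 to 4950 CPM in sham females and 1514 to 2568 in sham males. After injury Lrp2 was at 1219 to 3436 CPM in females and 614 to 1131 in males. The 16 proximal tubule markers, Kap and Slc7a13 among them, summed to 22241 to 30379 CPM in sham females and 20920 to 40991 in sham males. After injury they summed to 18910 to 27477 CPM in females and 15057 to 18364.5 in males. The part of tubule RNA in the Col6a6 and Col19a1 differences was not tested.

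Of 11 laminin genes 5 were higher in sham endothelial isolates than in sham tubules and 0 lower. With both isolations scaled together and equal weight to the sexes, 11 of 46 members were higher and 2 lower in endothelial isolates, beside 10.4% and 1.86% of 21206 genes. Lamb2 was at 100.3 ± 45.9 CPM (SD, n = 2) in females and 68.8 ± 49 (n = 3) in males, against 16.1 ± 4.01 and 21.6 ± 6.44 in tubules (log2 2.15 ± 0.35, adjusted p = 0.00043). Lamc1 (1.12 ± 0.23), Lama3 (1.66 ± 0.40) and Lama4 (2.08 ± 0.56), an alpha chain of vascular basement membranes, were higher too. Lama5 (1.00 ± 0.35, adjusted p = 0.0697), Lamb1 (0.30 ± 0.14, adjusted p = 0.187) and Lama1 (-0.52 ± 0.23, adjusted p = 0.171) did not pass. Among collagens Col15a1, which lies in vascular basement membranes, was at 14.5 ± 11.6 CPM in female and 10.9 ± 10.8 in male libraries, against 1.51 ± 0.408 and 1.43 ± 0.286 in tubules (log2 3.09 ± 0.52, adjusted p = 0.000587). The other higher ones were Col12a1 (2.34 ± 0.40), Col18a1 (0.69 ± 0.16), Col5a1 (2.18 ± 0.64), Col5a2 (3.12 ± 0.72) and Col1a2 (1.75 ± 0.49). Lower were Col27a1, a fibrillar collagen, at 23.9 ± 2.33 and 15.7 ± 6.47 CPM against 62.6 ± 3.57 and 42.4 ± 15.7 (log2 -1.41 ± 0.29, adjusted p = 0.00258), and Col19a1, which had no read in the sham female isolates. Lamb1 to Lamb2, as TPM over near full-length transcripts, was 7.64 ± 1.61 in female and 7.95 ± 2.04 in male sham tubules (n = 3) and 2.29 ± 0.908 (n = 2) and 2.64 ± 1.05 (n = 3) in endothelial isolates.

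These differences moved with the makeup of the isolates. Of 14 endothelial markers 13 were higher in the isolates, but so were 7 of 10 podocyte, 7 of 11 distal and 6 of 14 mural and fibroblast markers, and the part of each was not tested. Lama3, Lama4, Col18a1, Col1a2, Col5a1 and Col19a1 of the 13 were lost without sham female endothelial replicate 1, which left 1 library in that group. With each library left out in turn, log2 differences were 1.22 to 1.85 for Lama3, 1.36 to 2.34 for Lama4 and 0.577 to 0.84 for Col18a1. They were 1.42 to 1.93 for Col1a2 and 1.4 to 2.88 for Col5a1. Shares of all genes called in these fits are not given here. Lama4, Col1a2 and Col5a1 were also lost without sham male endothelial replicate 3, and Col5a1, Col1a2 and Col19a1 without sham female tubule replicate 1. Col19a1 was lost without sham female endothelial replicate 2 too, and Col5a1 without sham female tubule replicate 2 or sham male tubule replicate 1 or 3. No difference in injury response between the isolations passed for any member in edgeR's test (0% of all genes higher, 0% lower), which took their libraries as independent. At an unadjusted p under 0.05 there were 3 members, beside 1011 of all 21206 genes tested, and DESeq2 called 0 members.

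Genes that fold, process, bind or signal beside the chains were counted from lists. In male tubules 8 of 22 tested receptor genes rose and 1 fell, and the list's median log2 change was 0.49. On the log2 scale Itga6, whose integrins bind laminin, rose by 1.37 ± 0.16 (adjusted p = 0.00076), Itgb1 by 0.80 ± 0.14, the collagen receptor Ddr1 by 0.69 ± 0.12 and the syndecan Sdc1 by 2.73 ± 0.55, and Itga1 was the one that fell. Of 20 basement membrane partners 2 rose and 4 fell. The laminin linker Nid1 rose by 2.76 ± 0.65 (adjusted p = 0.0179), and Frem2 and Fras1, which anchor epithelia to the membrane, had log2 changes of -2.37 ± 0.40 and -1.76 ± 0.35. Of 21 folding and modification genes 2 rose, the prolyl hydroxylase subunit P4ha2 (1.18 ± 0.17, adjusted p = 0.00244) and the export coat gene Sec24d (0.78 ± 0.22), and 0 fell. Of 13 processing and cross-linking genes 3 rose and 0 fell, with the transglutaminase Tgm2 at 1.38 ± 0.12 (adjusted p = 0.000217) and the procollagen protease Bmp1 at 1.11 ± 0.34. Of 18 TGF-beta signalling genes 5 rose, among them Tgfb1 (1.80 ± 0.49) and its receptor gene Tgfbr1 (1.45 ± 0.22), and 0 fell. None of 13 interstitial matrix partners passed in edgeR's test (2 at an unadjusted p under 0.05, beside 6615 of all 18369 genes, and 2 by DESeq2). These counts stand beside 10.6% higher and 8.43% lower over all genes.

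In female tubules none of the genes on these 6 lists passed in edgeR's test, 20 of 107 (2032 of 18369 over all genes) had an unadjusted p under 0.05 and DESeq2 called 5. In male endothelial isolates 1 did, Itga6, with a log2 change of 1.18 ± 0.21 (adjusted p = 0.031). In female endothelial isolates none did (1 at an unadjusted p under 0.05, beside 475 of all 19910 genes, and 1 by DESeq2). Between the sexes after injury in tubules, 7 of 22 receptor genes were higher and 3 lower in males, beside 12.8% and 10.5% of all genes. P4ha2 was higher in males (1.54 ± 0.18, adjusted p = 0.000413), while the type IV collagen prolyl hydroxylase P3h2 was lower (-2.21 ± 0.32, adjusted p = 0.00139). In the test of the sex difference in the tubule response, P4ha2 (1.38 ± 0.24), Tgm2 (1.49 ± 0.17) and Itga6 (1.49 ± 0.22) were higher and Frem2 (-2.85 ± 0.55) lower in males. After sham, 12 of 21 basement membrane partners and 13 of 22 receptor genes were higher in endothelial isolates than in tubules, and none was lower, beside 10.4% and 1.86% of all genes.

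The authors' deposited tables listed 49 of the 55 members. For injury in male tubules they held 10 members higher and 5 lower of 44 with an adjusted p, where 22.8% of all genes with one passed in either direction. The deposited log2 changes were 1.51 for Col18a1, 0.78 for Col4a1, -0.92 for Col4a3 and -0.79 for Col4a4 in the authors' deposited table. It is not stated whether the deposited changes were shrunk, that is, pulled toward no change, so their sizes may not compare with edgeR's. For female tubules the authors' deposited table held 2 members higher and 0 lower, beside 2.5% of all genes. Col18a1 was one of them (0.76, adjusted p = 0.0337 in the authors' deposited table). In male endothelial isolates the authors' deposited table held 3 higher, Col18a1, Col4a1 and Col13a1, and 0 lower, beside 5.3% of all genes. In female endothelial isolates the authors' deposited table held 0, beside 0.316%.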

How the data were processed

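The deposited files held, per the file headers, estimated counts, TPM and effective lengths of transcripts in bases (a column of another kind of unit), which the authors made with Salmon 0.13.1 on GRCm38, per the submitters' processing notes; the transcript set is not given in the sources used here. RNA had an RQN above 7 and libraries were poly(A) selected, per the labels' protocols. The authors' deposited tables gave log2 fold changes and adjusted p-values from DESeq2, per the submitters' processing notes, with no version given. Reads of the technical libraries of sham male tubule replicate 3 (21192147 and 21054285 estimated reads) were added.

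Estimated counts were summed by gene, rounded and tested with edgeR 4.0.16 in R 4.3.3 (limma 3.58.1): TMM scaling, low counts filtered by group (minimum count 10, total 15), 1 mean per group, quasi-likelihood F-test, Benjamini-Hochberg adjustment over all genes tested, threshold 0.05. The tubule fit had 12 libraries (18369 genes, 8 residual degrees of freedom), the endothelial fit 11 (19910 genes, 7) and the joint fit 23 (21206 genes, 15). The SE was the log2 change divided by the square root of F. The code was tested on simulated data. Counts set the precision, and members of few reads have wide errors. Alternatives were RLE scaling, no filter, DESeq2 1.42.0, length offsets, fits of only the groups compared, a replicate block, either technical library alone and each library left out; 2 were added after seeing the data. TPM was summed over transcripts at least 0.5 times the longest coding one, or over all transcripts. Gene positions are from GENCODE M21.

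Members and lists were chosen with earlier results of these data known. Any member could be named; values in every library were planned for members called in an injury comparison and for the 8 of highest TPM in each isolation, and from each list up to 4 called genes per comparison. Genes outside that rule, and the ratio of the type IV networks, were chosen after their values were seen. The values of 1 member are not reported here; it is included in the counts. Deviations from group means of same-numbered libraries correlated by 0.106 to 0.245 between sham and injured male tubules. Between injured female and male tubules they correlated by 0.161 to 0.202. Between sham male and injured female tubules the correlations were -0.166, 0.365 and 0.132 for replicates 1, 2 and 3. Differently numbered libraries were not correlated, so these values cannot show whether same-numbered libraries are paired. The range was -0.236 to 0.00279 between sham females and other tubule groups and -0.553 to 0.605 in endothelial isolates. By title number, correlations between the isolations were -0.152 to 0.129 after sham and 0.156 to 0.394 in injured females. In injured males they were -0.838, 0.645 and 0.897 for replicates 1, 2 and 3. Libraries of the isolations were fitted as independent all the same.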

Additional observations from a re-analysis of the deposited data

Results flagged for a closer look

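The injury response of Lamb1 differed between the sexes in tubules by the test of the difference itself. The log2 change was -0.49 ± 0.12 in males and 0.36 ± 0.12 in females, a difference of -0.85 (SE 0.171, adjusted p = 0.0464, edgeR). All 3 injured male libraries lay below the sham males and all 3 injured female libraries above the sham females. No other member passed that test. The call was lost without any of 10 of the 12 tubule libraries (adjusted p up to 0.147), and with RLE scaling, no filter, length offsets, the replicate block or technical library 3B alone (adjusted p from 0.0544 to 0.294), and DESeq2 made it (adjusted p = 0.00116).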

How the results depend on the processing

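Counts of members called moved with the settings, and the causes were not tested. Shares of all genes called under each alternative are not given here. For injury in male tubules (13 called) length offsets gave 8, DESeq2 21 and a fit of only the groups compared 1, and leaving out each library gave 7 to 17. For injury in female tubules (0 called) DESeq2 gave 5, only the groups compared 10 and the fit made without injured male replicate 3 gave 1. For sham tubules between the sexes (6 called) DESeq2 and the fit made without injured male replicate 3 each gave 10, and leaving out each library 3 to 5. For injured tubules between the sexes (12 called) length offsets gave 7 and leaving out each library 6 to 19. For the sex difference in the tubule response (1 called) DESeq2 gave 4, leaving out each library 0 to 12, and RLE scaling, no filter, length offsets and technical library 3B alone 0. For injury in male endothelial isolates (2 called) no filter and DESeq2 each gave 7, RLE scaling and length offsets each 1, only the groups compared 0, and leaving out each library 0 to 3. For sham endothelial isolates between the sexes (1 called) no filter and DESeq2 each gave 2, length offsets 0 and leaving out each library 0 to 2. For injured endothelial isolates between the sexes (3 called) DESeq2 gave 5, length offsets and only the groups compared 0, and leaving out each library 0 to 3. For sham endothelial isolates against tubules (13 called) leaving out each library gave 8 to 15. With a replicate block, the counts were 12, 0, 5, 9 and 0 in the tubule comparisons in this order, 1, 0 and 0 in these endothelial ones and 11 between isolations. Same-numbered libraries deviated together in 2 tubule comparisons (injury in males, and sex after injury), and the text gives the calls that the block ended there. Ratios of TPM changed from all to near full-length transcripts: Col4a1 to Col4a2 from 5.72 to 1.59 in tubules and from 4.89 to 1.37 in endothelial isolates, Col4a3 to Col4a4 from 0.78 to 0.539 in tubules, Lamb1 to Lamb2 from 2.74 to 6.3 and from 0.717 to 2.21, and Lama4 to Lama5 from 0.0275 to 0.0623 and from 0.0475 to 0.126. No called change reversed under these settings. Of 790 values of called genes under alternatives, 592 stayed past the threshold and 198 did not. Of the 51 calls of a member in a comparison, 22 held in every fit without 1 library. Members of few reads, such as Col19a1 in females, have wide errors at this depth.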
